A study of Homo sapiens with 2 samples.

Results

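The HMG proteins and prothymosin are 9 genes of abundant nuclear proteins, HMGB1, HMGB2, HMGB3, HMGN1, HMGN2, HMGN3, HMGN5, HMGA1 and PTMA, and each was found by its symbol among the 33538 Ensembl genes of the deposited count table. SH-SY5Y (SY5Y) is an established human neuroblastoma line of adrenergic character. Untreated cells were grown in 2 flasks, SplitA and SplitB, which descend from the same culture and received no agent, and a hashtag antibody of its own marked each flask before the cells were pooled and sequenced by CITE-seq in 1 mRNA library and 1 hashtag library. Of 2879 cells, 95 were multiplets by their hashtag counts, and of the singlets 1179 came from SplitA and 1605 from SplitB. All values refer to the singlets with at least 1000 genes, 899 in SplitA and 1195 in SplitB, unless other cells are named.

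HMG proteins are non-histone proteins that change the shape of DNA and chromatin. HMGB proteins carry HMG boxes that bend DNA, HMGN proteins bind the nucleosome core and compete with linker histone H1, and HMGA1 binds the minor groove of AT-rich DNA through AT-hooks. Prothymosin alpha, the product of PTMA, is a small and very acidic nuclear protein that binds histone H1 and is known for its link with proliferation.

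The kept cells had 1948 to 27205 UMIs in SplitA (median 6063) and 1801 to 27006 in SplitB (median 6346). All 10 adrenergic markers had UMIs, and their sum was 3109 CPM (UMIs per 1000000 UMIs of the cells concerned) in SplitA and 3002 in SplitB, although TH, the enzyme that starts catecholamine synthesis, had 9 UMIs in each flask. Markers of other cell types summed to at most 10.7 CPM for any type, which was reached by 3 of 5 fibroblast genes, and COL1A2, DCN, PTPRC, CD3E, LYZ, PECAM1, CDH5, VWF, CDH1 and HBB were at 0. Since every cell belonged to the same line, no cell type that lacks the members was at hand to measure free RNA. Cells in G1, S and G2M numbered 373, 286 and 240 in SplitA and 500, 368 and 327 in SplitB.

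The promoters of 6 members are shown because 5 of them drive genes that rose from G1 to S and G2M and the last, HMGN3, drives one with no such call in S or in G2M against G1. They were taken from RefSeq (GRCh38.p14), hold 250 bases before and 50 after the start site in the direction of the gene, and have matches to 3 motifs in capitals. The CCAAT box was searched as CCAAT on both strands. The cell cycle homology region (CHR), known from promoters of mitotic genes, was searched as TTTGAA on both strands. The E-box was searched as CACGTG, which reads the same on both strands. Matches did not overlap, and positions count from the start site. An entry was present for 8 of the members, all but HMGB2. The promoter shown for HMGB1 spans chr13:30465887-30466186 on the minus strand, that of HMGB3 chrX:150983085-150983384 (plus) and that of HMGN1 chr21:39349039-39349338 (minus). The promoter of HMGN2 spans chr1:26472190-26472489 (plus), that of PTMA chr2:231708275-231708574 (plus) and that of HMGN3 chr6:79234633-79234932 (minus).
HMGB1: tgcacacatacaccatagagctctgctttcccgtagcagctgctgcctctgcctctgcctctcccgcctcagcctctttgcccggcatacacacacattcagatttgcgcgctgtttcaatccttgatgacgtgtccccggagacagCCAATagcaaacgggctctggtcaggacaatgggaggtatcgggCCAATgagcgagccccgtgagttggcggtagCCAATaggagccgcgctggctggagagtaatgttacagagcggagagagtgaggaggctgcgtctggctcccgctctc
HMGB3: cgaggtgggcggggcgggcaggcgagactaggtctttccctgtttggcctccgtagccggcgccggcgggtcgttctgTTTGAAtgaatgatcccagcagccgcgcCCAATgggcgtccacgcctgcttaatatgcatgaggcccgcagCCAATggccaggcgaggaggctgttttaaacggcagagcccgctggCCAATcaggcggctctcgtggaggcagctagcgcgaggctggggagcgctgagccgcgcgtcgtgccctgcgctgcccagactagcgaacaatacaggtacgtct
HMGN1: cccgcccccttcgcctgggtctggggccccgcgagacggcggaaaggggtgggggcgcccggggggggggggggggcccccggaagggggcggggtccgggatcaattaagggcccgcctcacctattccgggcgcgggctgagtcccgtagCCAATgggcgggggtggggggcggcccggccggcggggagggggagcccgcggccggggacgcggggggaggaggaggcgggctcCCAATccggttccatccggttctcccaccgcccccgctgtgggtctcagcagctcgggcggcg
HMGN2: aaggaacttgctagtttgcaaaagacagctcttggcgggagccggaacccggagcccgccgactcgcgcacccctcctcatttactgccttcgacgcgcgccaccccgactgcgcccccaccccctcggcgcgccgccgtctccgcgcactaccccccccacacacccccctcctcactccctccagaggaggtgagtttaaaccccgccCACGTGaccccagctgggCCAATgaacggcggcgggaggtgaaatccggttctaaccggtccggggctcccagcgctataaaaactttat
PTMA: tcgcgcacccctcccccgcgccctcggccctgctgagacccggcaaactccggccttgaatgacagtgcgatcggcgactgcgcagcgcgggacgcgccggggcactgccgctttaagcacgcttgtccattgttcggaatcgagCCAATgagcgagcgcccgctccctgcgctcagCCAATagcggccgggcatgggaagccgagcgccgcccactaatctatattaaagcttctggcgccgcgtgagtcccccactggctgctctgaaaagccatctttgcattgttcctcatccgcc
HMGN3: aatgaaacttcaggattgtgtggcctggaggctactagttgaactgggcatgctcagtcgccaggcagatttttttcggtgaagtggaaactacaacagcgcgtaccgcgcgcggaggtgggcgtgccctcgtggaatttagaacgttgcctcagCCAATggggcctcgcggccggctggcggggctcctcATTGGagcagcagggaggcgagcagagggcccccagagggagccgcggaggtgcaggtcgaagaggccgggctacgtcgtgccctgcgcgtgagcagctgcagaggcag

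A CCAAT box was present on either strand in the first promoter listed for 7 of 8 members, the exception being HMGN5, while 35.7% of the 27305 promoters of the same length held one. HMGB1 and HMGB3 had 3 copies each, HMGN1, HMGN3 and PTMA 2 each and HMGN2 and HMGA1 1 each. CHR letters were found in the first promoter of HMGB3 only, at position -172, and in a second promoter of HMGB1, against 15.4% of all promoters. The E-box was found in HMGN2 alone, at -40, against 7.43% of all promoters. Neither form of the E2F letters (TTCCCGC or TTGGCGC, both strands, present in 9.33% of promoters) occurred in the first promoter of any of the 8.

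The 9 members together held 7008 CPM in SplitA and 6914 CPM in SplitB, which is 0.701% and 0.691% of all UMIs. Each UMI tags the 3' end of 1 molecule, so levels were not divided by gene length. PTMA was the most abundant member, with 2244 CPM in SplitA (95% Poisson interval 2206 to 2283) and 2307 CPM in SplitB (2274 to 2341), and ranked 91 among all genes in both flasks. HMGB1 (chr13:30456704-30617597 in GENCODE 44, minus strand) followed with 1254 and 1243 CPM, a median of 7 UMIs per cell, and a UMI in 97.8% of the cells of SplitA and 97.2% of SplitB. Intervals given with levels, ratios and shares cover counting error only.

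Below them stood HMGN2 with 957 and 913 CPM, HMGN1 with 895 and 840.1 CPM, and HMGB2 with 841 and 802 CPM. The values of HMGN1 and HMGB2 overlapped between flasks, whereas HMGN2 was higher than HMGN1 in every pairing of flasks. HMGA1 had 376 CPM in both flasks and HMGN3 353 and 344 CPM. HMGB3 was an order of magnitude below HMGB1, with 87.0 and 84.2 CPM and a UMI in 37.2% of the cells of each flask.

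HMGN5, the member with a long acidic tail, was near the limit of detection, with 12 UMIs in SplitA (2.05 CPM, interval 1.06 to 3.58) and 34 in SplitB (4.21 CPM, interval 2.92 to 5.89). Only 1.33% and 2.85% of cells had a UMI of it, and no cell had more than 1. The ratio of SplitB to SplitA was 2.06 (95% interval 1.04 to 4.36), the only ratio of a member above 1.03. For the other 8 members it lay between 0.939 for HMGN1 and 1.03 for PTMA. With 1 flask against 1 flask no test of these ratios was possible.

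**Figure D1:**
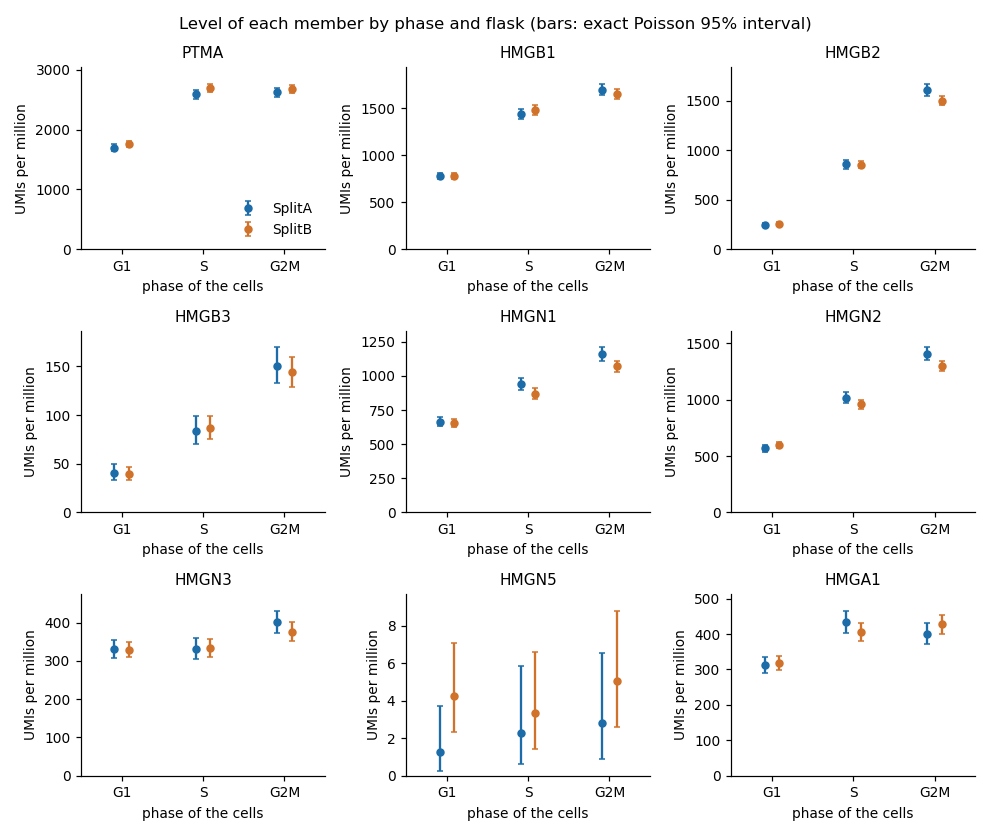
The level of each member in CPM is plotted by phase (G1, S, G2M) for SplitA (blue) and SplitB (orange), as points with exact Poisson 95% intervals and a vertical axis from 0. HMGB2 climbed from 245 and 259 in G1 to 1611 and 1504 in G2M, HMGN3 lay between 329 and 401, and HMGN5 had at most 5.05.

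The members were then compared over the cell cycle. Phases were called from cycle gene scores without HMGB2, so no member decided the phase of a cell, and raw UMIs were summed per flask and phase and compared with edgeR's quasi-likelihood test with the flask as a block. Of the 8 members that passed the filter on low counts, 7 were higher in S than in G1, 7 were higher in G2M than in G1 and 6 were higher in G2M than in S at a Benjamini-Hochberg adjusted p under 0.05, and none was lower in any of the contrasts (lower among all genes 9.79%, 15.3% and 4.07%). Among the 10498 genes tested that are not cycle score genes, 10.2%, 14.8% and 3.50% were called higher in the same contrasts, and 20.0%, 30.1% and 7.56% in either direction. Among the 1215 genes with at least the UMIs of HMGB3, the least abundant member tested, 17.5%, 19.5% and 6.09% were called higher and 32.5%, 46.6% and 20.2% lower. Members with a call and a difference of at least 1 on the log2 scale numbered 2, 3 and 0, beside 3.59%, 4.97% and 0.905% of genes. The median log2 difference of the 8 members was 0.60, 0.81 and 0.22, beside -0.01, 0.03 and -0.00 over all genes tested. DESeq2 called 7, 6 and 4 members higher in the same contrasts, beside 316, 417 and 68 of 10498 genes higher. In either direction it called 5.58%, 9.22% and 1.33% of genes. For the count of 0 lower, an unadjusted p under 0.05 and DESeq2 also gave 0 in each contrast. DESeq2 called 270, 551 and 72 of the 10498 genes lower.

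The fit had 2 residual degrees of freedom and estimated a spread between flasks close to counting error, so its p-values are close to those of a counting test on cells of 1 culture and 1 library. Phases are ranges of a score, and 208 of 2094 cells (9.93%) lay within 0.02 of another phase. Cells with a mitochondrial share of 15% or more were more frequent in S (13.3% and 12.8%) than in G1 (4.29% and 5.00%) or G2M (6.67% and 9.79%). Without them 7, 8 and 5 members were called higher, beside 1035, 1491 and 344 of 10364 genes. Median depth was 5819, 5847 and 7096 UMIs in G1, S and G2M of SplitA and 6062, 6110.5 and 7022 in SplitB.

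HMGB2, which with HMGB1 bends DNA and is abundant in dividing cells, had the largest rise of the members. It had 245 CPM in G1, 857 in S and 1611 in G2M of SplitA, and 259, 855 and 1504 CPM in SplitB. Both flasks gave the same order, and the ranges of the phases did not overlap. The log2 difference was 1.68 ± 0.05 (SE) in S against G1 and 2.50 ± 0.05 in G2M against G1, the latter a 5.65-fold rise with an edgeR p so small that it was returned as 0. G2M exceeded S by 0.82 ± 0.04 (edgeR adjusted p = 3.88e-87). Counted per cell, HMGB2 went from 1.54 UMIs in G1 to 11.9 in G2M in SplitA and from 1.71 to 10.9 in SplitB.

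HMGB3, the X-linked member of the HMGB family, rose less steeply than HMGB2 and from a low level. SplitA had 41.1, 83.9 and 151 CPM in G1, S and G2M, and SplitB 39.4, 86.7 and 144 CPM. The log2 difference to G1 was 1.01 ± 0.13 in S and 1.75 ± 0.11 in G2M, a 3.37-fold rise (edgeR adjusted p = 3.45e-52). HMGB1 rose less, from 779.7 CPM in G1 to 1437 in S and 1698 in G2M of SplitA and from 778 to 1482 and 1650.3 CPM in SplitB. Most of its rise had occurred by S, with log2 differences to G1 of 0.83 ± 0.04 in S and 0.98 ± 0.04 in G2M. The step from S to G2M was 0.16 ± 0.04 for HMGB1 (edgeR adjusted p = 7.21e-04), and its call was lost with DESeq2 (adjusted p = 0.186) and with all cells thinned to 2000 UMIs (edgeR adjusted p = 0.212).

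The HMGN proteins, which loosen chromatin by binding nucleosomes, did not move alike. HMGN2 had 570.1, 1016 and 1409 CPM in G1, S and G2M of SplitA and 599, 961 and 1300.4 CPM in SplitB. This was a log2 difference to G1 of 0.67 ± 0.04 in S and 1.08 ± 0.04 in G2M, a 2.12-fold rise (edgeR adjusted p = 7.13e-147). HMGN1 had 663, 939 and 1158 CPM in SplitA and 653, 871 and 1069.7 CPM in SplitB, so it rose in the same order but by less, 0.38 ± 0.04 in S and 0.64 ± 0.04 in G2M (edgeR adjusted p = 6.30e-50).

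HMGN3 had 331, 333 and 401 CPM in SplitA and 329, 334 and 376 CPM in SplitB. Its log2 difference to G1 was -0.06 ± 0.06 in S (edgeR adjusted p = 0.498), which turned to 0.01 with scaling to total UMIs, and 0.11 ± 0.06 in G2M (edgeR adjusted p = 0.129). It was called higher in G2M than in G1 under 4 of 15 alternatives, among them total UMIs (0.23) and UMIs per cell (0.42). The difference of G2M to S was 0.18 ± 0.06 (edgeR adjusted p = 0.0447), and 8 of 15 alternatives kept this call, with adjusted p-values from 2.91e-06 to 0.763. HMGN5 had 3, 4 and 5 UMIs in G1, S and G2M of SplitA and 14, 8 and 12 in SplitB, and did not pass the filter. Without the filter its log2 differences were -0.11 ± 0.57 in S and 0.35 ± 0.53 in G2M, neither of which was called, so a change of it was not detectable at this depth.

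HMGA1 and PTMA rose into S and showed no further step that passed the test. HMGA1 had 313, 434 and 401 CPM in SplitA and 318, 406 and 427 CPM in SplitB. The flasks did not order S and G2M alike. Its log2 difference to G1 was 0.33 ± 0.06 in S (edgeR adjusted p = 1.99e-07) and 0.28 ± 0.06 in G2M (edgeR adjusted p = 1.06e-05), and the interval of G2M against S reached from -0.16 to 0.06. The call in S was kept under 14 of 15 alternatives. It was lost when phases were called anew on thinned cells (edgeR adjusted p = 0.222). The call in G2M was kept under 12 of 15, and was lost among others with DESeq2 (adjusted p = 0.0612) and with thinned cells (edgeR adjusted p = 0.169).

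PTMA had 1699, 2589 and 2624 CPM in SplitA and 1760.1, 2696 and 2677 CPM in SplitB. Its log2 difference to G1 was 0.53 ± 0.03 in S and 0.50 ± 0.03 in G2M (edgeR adjusted p = 6.77e-51), and that of G2M to S was -0.04 ± 0.03 (95% interval -0.10 to 0.03). Per cell and without scaling to totals, where the median gene is 0.25 higher in G2M than in S, PTMA was instead 0.23 higher in G2M. On the same scale the median of all genes stood at 0.33 in G2M against G1, and the share of higher calls among all calls went from 51.0%, 49.1% and 46.2% to 62.5%, 86.6% and 97.5%, while scaling to total UMIs alone, with medians of 0.07, 0.14 and 0.04, gave 66.2%, 66.2% and 62.4%. The 7 members called higher in S and in G2M against G1 stayed higher under each of these scalings.

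**Figure D2:**
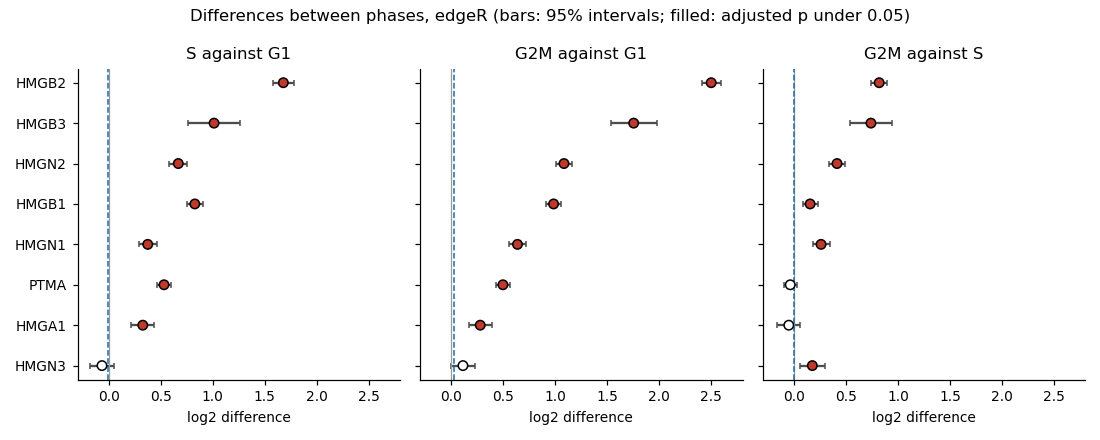
The log2 difference of 8 members is plotted for S against G1, G2M against G1 and G2M against S, with bars of 95% intervals, filled points for an adjusted p under 0.05 in edgeR and a dashed line at the median of all genes. HMGB2 (2.50) and HMGB3 (1.75) lie farthest from 0 in G2M against G1, while HMGN3 (0.11) is open there.

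A finer order was obtained by sorting all kept cells into 8 bins of equal number by the angle of their S and G2M scores, where bins 1 to 3 hold almost only G1 cells, bins 5 and 6 mostly S cells and bins 7 and 8 only G2M cells. HMGB2 was lowest in bin 2, with 214 and 221 CPM in SplitA and SplitB, and highest in bin 8, with 1797 and 1638 CPM, a range of 8.39 and 7.41 times. HMGB3 also peaked in bin 8 and spanned 5.47 and 5.51 times. HMGB1 had already reached 1506 and 1526 CPM in bin 5 and had 1769 and 1656 CPM in bin 8. Its highest bin was bin 8 in SplitA but bin 6 in SplitB, with 1693 CPM and a counting interval that overlaps that of bin 8.

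PTMA had its highest value in bin 6 in both flasks, with 2725 and 2859 CPM, where the counting intervals overlap those of bins 5 and 7, and had 2546 and 2511 CPM in bin 8. HMGA1 peaked at 489 CPM in bin 5 of SplitA and at 467 CPM in bin 7 of SplitB, so its peak was not placed alike by the flasks, but in both it was lower in bin 8 (357 and 386 CPM) than at its peak. HMGN3 was at its highest in bin 8, with 472 and 403 CPM. The highest bin was 1.92 and 1.81 times the lowest for HMGN1, 2.97 and 2.55 times for HMGN2 and 1.54 and 1.27 times for HMGN3.

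**Figure D3:**
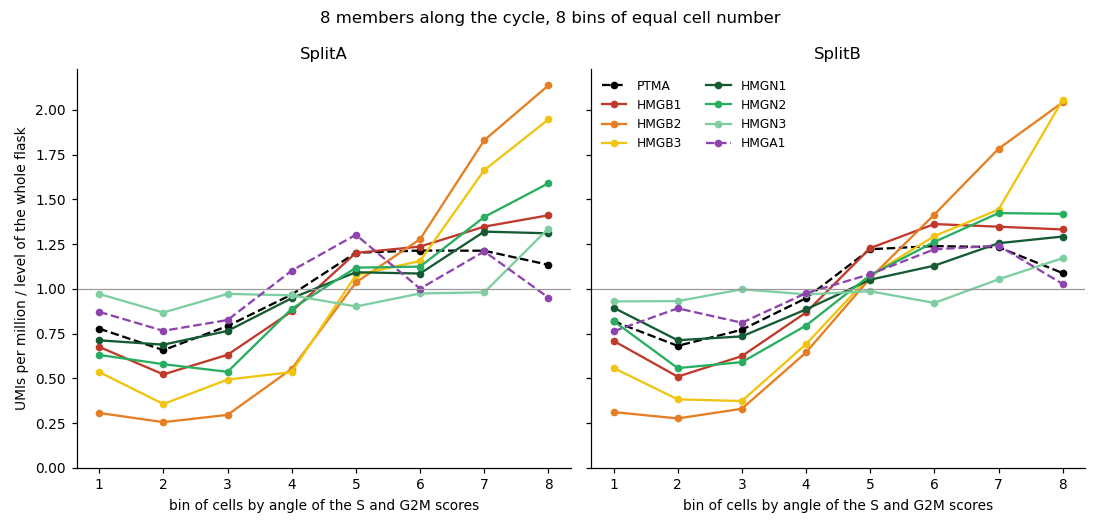
For 8 members the CPM in each of 8 bins of cells, relative to the level of the whole flask, is drawn against the bin, for SplitA on the left and SplitB on the right. HMGB2 and HMGB3 climb to the last bin in both flasks, PTMA and HMGA1 are lower in it than in bin 7, and HMGN3 ranges least.

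The members also differed in how much their level varied between cells. The spread was measured as excess CV, the standard deviation beyond counting noise at the depth of each cell, relative to the mean. HMGB2 had 82.4% in SplitA and 83.9% in SplitB, rank 29 of 708 and 28 of 716 genes with a mean of at least 1 UMI per cell, whose median was 31.1% and 31.4%. Within a phase the excess CV of HMGB2 fell to 42.0% and 48.2%. HMGB3 had 75.4% and 82.0%, HMGN2 57.6% and 55.8%, HMGB1 47.9% and 49.5% and PTMA 40.7% and 43.1%. HMGN1 and HMGA1 were closer to the median gene, with 35.0% and 35.3% for HMGN1 and 34.8% and 34.4% for HMGA1. HMGN3 had 33.7% and 23.7% and barely changed within a phase, at 32.6% and 22.9%.

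Over the cells of a flask HMGB1, HMGB2, HMGN1, HMGN2 and PTMA were co-expressed, with an r from 0.31 to 0.50 in their pairs, and the pair of HMGB2 and HMGB3 lay in the same range. Pearson's r of LogNorm values (log of UMIs per 10000) had a median of 0.17 in SplitA (899 cells) and 0.18 in SplitB (1195 cells). These medians are over all 36 pairs, those with HMGN5 included. The highest values were those of HMGB1 with HMGN2 (0.49 and 0.47), HMGB1 with HMGB2 (0.48 and 0.50), HMGB1 with PTMA (0.45 and 0.44), HMGN1 with HMGN2 (0.44 and 0.40) and HMGB2 with HMGN2 (0.43 and 0.41). HMGA1 reached 0.21 and 0.26 with PTMA and HMGN3 0.22 and 0.18 with HMGN1, while HMGN5 was too sparse for its values, from -0.07 to 0.06, to be read. In the kept cells with a mitochondrial share under 15% (829 and 1091) the median over pairs was 0.12 and 0.13. There HMGA1 with PTMA was at 0.15 and 0.18 and HMGN3 with HMGN1 at 0.12 and 0.11, whereas HMGB1 with HMGN2 was at 0.57 and 0.54. All pairs share the library and the depth of the cell. With cells thinned to 2000 UMIs the median fell to 0.07 in both flasks, and HMGB1 with HMGB2 was at 0.32 and 0.33. Thinning also adds counting noise, which lowers r, so the part of shared depth in this fall was not tested.

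When the S and G2M scores were regressed out, the median over pairs was 0.14 and 0.16, but the pairs lost unequal amounts. HMGB1 with HMGB2 went to 0.23 and 0.30, and HMGB2 with HMGB3 from 0.31 and 0.33 to 0.08 and 0.16. HMGB1 with HMGN2 kept 0.43 and 0.39 and HMGB1 with PTMA 0.39 and 0.39. Among G1 cells alone (373 and 500), HMGB1 with HMGN2 was at 0.43 and 0.36, HMGB1 with PTMA at 0.36 and 0.34 and HMGB1 with HMGB2 at 0.25 and 0.21. Among G2M cells (240 and 327), HMGN2 with PTMA was at 0.38 and 0.51 and HMGN1 with HMGN2 at 0.46 and 0.45. Among G1 cells these pairs were lower, at 0.16 and 0.19 and at 0.23 and 0.21. HMGB1 with HMGN2 was instead lower in G2M, at 0.21 and 0.22. HMGB1 with PTMA was at 0.30 and 0.30 in G2M and HMGB1 with HMGB2 at 0.28 and 0.44. Counts differed between phases, with 3.57 and 3.96 UMIs of HMGN2 per cell in G1 and 10.4 and 9.45 in G2M. HMGN1 had 4.15 and 4.31 in G1 and 8.56 and 7.77 in G2M. Counting noise lowers r. The part of these counts, or of cells with a high mitochondrial share, in the differences between phases was not tested.

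**Figure D4:**
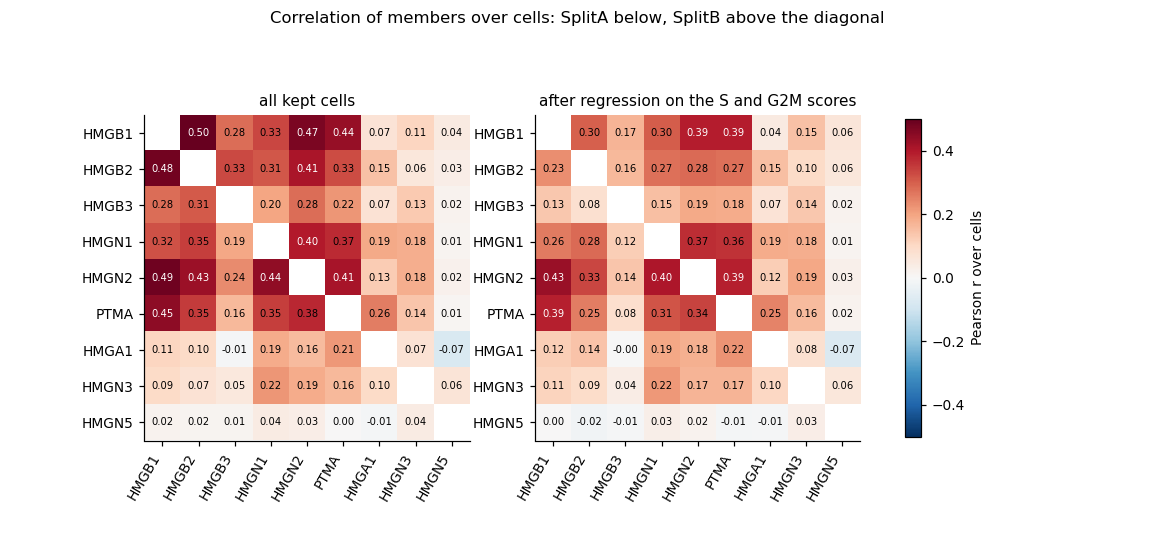
Pearson's r between the LogNorm values of each pair of members over cells is given for SplitA below and SplitB above the diagonal, for all kept cells on the left and after regression on both cycle scores on the right. HMGB1, HMGB2, HMGN1, HMGN2 and PTMA form the darkest block on the left, and the pair of HMGB2 and HMGB3 is paler on the right (0.08 and 0.16).

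Among the 5190 other genes detected in no fewer than 10% of cells in either flask, the nearest in r to HMGB1 were H2AZ1 (0.53 and 0.52), HMGB2 (0.48 and 0.50) and STMN1 (0.48 and 0.52). The nearest to HMGB2 were BIRC5 (0.57 and 0.53), H2AZ1 (0.57 and 0.52) and CKS1B (0.51 and 0.53), where BIRC5 and CKS1B are cycle score genes. For HMGB3 they were HMGB2, CENPF and NUCKS1 (0.30 to 0.33), and for HMGN2 HMGB1, UBE2S (0.44 and 0.43) and CKS1B (0.42 and 0.47). PTMA had HMGB1, STMN1 (0.41 and 0.42) and HMGN2, and HMGN1 had HMGN2, PTMA (0.35 and 0.37) and the ribosomal gene RPS27 (0.35 and 0.34).

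HMGA1 and HMGN3 had other neighbours. Those of HMGA1 were the ribosomal genes RPL41 (0.33 and 0.32), RPL37A (0.31 and 0.32) and RPS2 (0.31 and 0.31). Those of HMGN3 were RPS12 (0.27 and 0.28), RPL41 (0.29 and 0.26) and ATP5F1E (0.26 and 0.25), the latter a subunit of the ATP synthase. HMGA1 (0.28 and 0.29) and HMGN3 (0.20 and 0.22) also had the highest r of the members with the log10 UMIs of the cell. With the mitochondrial share of the cell, HMGA1 had an r of -0.31 and -0.28 and HMGN3 of -0.29 and -0.28. HMGN1, HMGN2 and PTMA had still lower values. The neighbours were taken over all kept cells, those with a high mitochondrial share included. The part of depth, or of the mitochondrial share, in these neighbours was not tested. For HMGN5 the rule gave SMG1, AP2S1 and NFYB, all at 0.12 or less and of no weight in counts so sparse. The 99th percentile of r over all genes was 0.25 and 0.25 for HMGB1, 0.24 and 0.24 for HMGA1 and 0.21 and 0.20 for HMGN3.

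The members also differed by the mitochondrial share of the cell, a comparison that was made after its values had been seen. The share of UMIs on the 13 mitochondrial protein genes had an r of -0.39 and -0.39 with HMGN1, -0.42 and -0.37 with HMGN2, -0.33 and -0.45 with PTMA, -0.31 and -0.28 with HMGA1 and -0.29 and -0.28 with HMGN3. With HMGB1 it was -0.08 and -0.14, with HMGB2 -0.04 and -0.06 and with HMGB3 0.04 and -0.08. The kept cells with a share of 15% or more were 70 in SplitA and 104 in SplitB, with a median of 2704 and 2837 UMIs.

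In those cells HMGN2 had 254 and 421 CPM, against 983 and 935 CPM in the kept cells below 15%. Since mitochondrial UMIs dilute all others, ratios were also taken over non-mitochondrial UMIs, where HMGN2 was at 0.314 (95% interval 0.236 to 0.411) in SplitA and 0.555 (0.468 to 0.655) in SplitB of its level in the other cells. On the same scale HMGA1 was at 0.386 and 0.514, HMGN1 at 0.577 and 0.695, HMGN3 at 0.670 and 0.573 and PTMA at 0.868 and 0.716, all with intervals below 1. HMGB1 was instead at 1.40 (1.24 to 1.57) and 1.17 (1.06 to 1.29). HMGB3 was at 1.95 (1.29 to 2.84) in SplitA and 1.20 (0.789 to 1.75) in SplitB. HMGB2 was at 1.17 (0.998 to 1.36) and 1.05 (0.922 to 1.20), so that 3 of the 4 intervals of HMGB3 and HMGB2 include 1. All these intervals cover counting error and not the spread between cells, and those of HMGN2 did not overlap between the flasks. The median over 1217 genes at least as abundant as HMGB3 was 0.951 and 0.955, with 10th percentiles of 0.414 and 0.495 and 90th percentiles of 2.62 and 2.46. HMGN2 was above 3.70% and 15.1% of these genes and HMGA1 above 7.72% and 11.8%, whereas PTMA was above 43.96% and 31.1% and HMGB1 above 69.2% and 63.1%. Within phases HMGN2 stayed below 1, at 0.571 and 0.636 in G1, 0.303 and 0.563 in S and 0.182 and 0.429 in G2M. In G1 HMGN1 was at 0.632 and 0.988, HMGA1 at 0.821 and 0.599 and HMGN3 at 0.919 and 0.747, all with intervals that include 1. In S and G2M their intervals lay below 1, except that of HMGN3 in G2M of SplitA (0.333 to 1.14). HMGB2 in G1 was at 0.955 (0.455 to 1.77) in SplitA and 1.95 (1.36 to 2.72) in SplitB. HMGB1 was at 1.42 and 1.35 in G1 and 1.28 and 1.19 in S, but in G2M at 1.27 in SplitA and 0.810 (0.664 to 0.978) in SplitB. PTMA was at 1.12 and 1.08 in G1, with intervals that reach below 1, and at 0.680 and 0.703 in S. In G2M the flasks differed, with PTMA at 0.880 (0.719 to 1.07) in SplitA and 0.394 (0.316 to 0.486) in SplitB, and HMGB2 at 1.12 (0.885 to 1.39) and 0.767 (0.620 to 0.940). These phase values rest on 16 to 47 cells with a high share.

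The 280 and 410 singlets with under 1000 genes had a median mitochondrial share of 32.6% and 36.7% and also had HMGN2 and HMGA1 low and HMGB1 near 1. Over non-mitochondrial UMIs HMGA1 was at 0.294 and 0.307 of its level in kept cells below 15%, HMGN2 at 0.454 and 0.567 and HMGB1 at 1.04 and 1.05. The median over 1217 genes was 0.83 and 0.865 there, with a 10th percentile of 0.392 in each flask. HMGA1 was above 3.04% and 2.55% of these genes, HMGN2 above 15.6% and 27.03% and HMGB1 above 59.4% and 60.3%. Of these members, only HMGA1 was below the 10th percentile. The part of the mitochondrial share, or of the low depth that goes with it, in these differences was not tested.

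**Figure D5:**
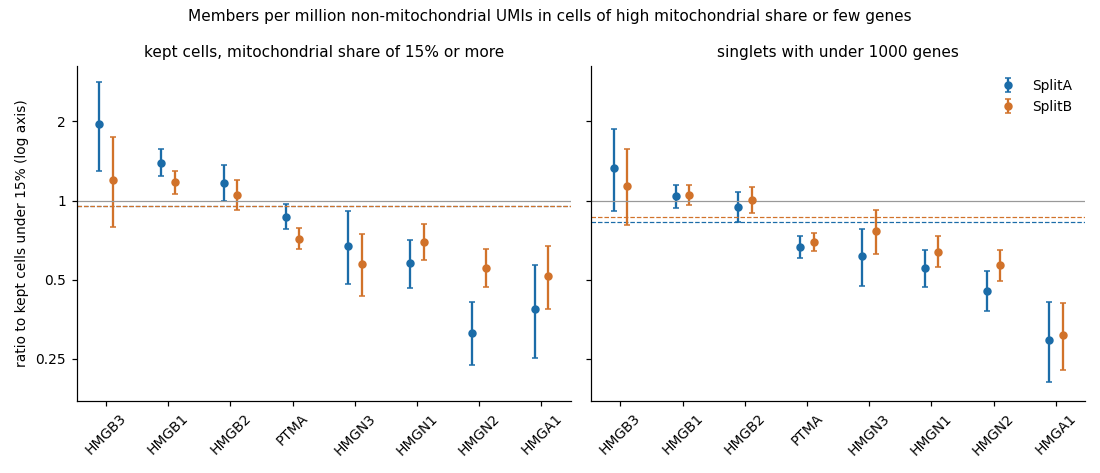
The ratio of the CPM over non-mitochondrial UMIs to that of kept cells with a mitochondrial share under 15% is drawn on a log axis with exact 95% intervals, for kept cells of 15% or more (left) and for singlets with under 1000 genes (right), in SplitA (blue) and SplitB (orange), with dashed lines at the median of 1217 genes. HMGB3, HMGB1 and HMGB2 lie near or above 1, and HMGA1 is lowest in the cells of few genes (0.294 and 0.307).

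Genes related to the members were described by lists, whose counts stand beside the 14.8% higher and 15.3% lower of all genes in G2M against G1 and the 10.2% and 9.79% in S against G1. Of 13 other genes with HMG boxes, HMGN or HMGA names, 10 could be tested, and 5 were higher and 1 lower in G2M than in G1 (median log2 difference 0.35, beside 0.03 over all genes). HMGXB4 rose by 1.05 ± 0.15, UBTF, which opens ribosomal DNA for transcription, by 0.76 ± 0.14 and SSRP1, a subunit of the histone chaperone FACT, by 0.71 ± 0.09, and BBX was at -0.41 ± 0.14 (edgeR adjusted p = 0.0182). DESeq2 called 3 higher and none lower, so the call of BBX was lost. HMGB4 and HMGA2 had no UMI, which allows up to 0.513 CPM in SplitA and 0.372 CPM in SplitB. This is a fixed limit of 3 UMIs and not the interval used for levels.

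All 16 histone chaperones and acidic nuclear proteins were tested, and 11 were higher and 2 lower in G2M than in G1 (median 0.49). ASF1B rose by 2.99 ± 0.30, CHAF1A, the large subunit of CAF-1, by 1.70 ± 0.19, HIRIP3 by 1.44 ± 0.18 and DEK by 1.22 ± 0.07. In S against G1 the counts were 10 higher and 2 lower (median 0.38). DESeq2 called 8 higher and 2 lower in G2M and 7 higher and 1 lower in S. The 2 lower genes by edgeR, named here after their values were seen, were the same in both contrasts. NPM1 was at -0.24 ± 0.05 in S and -0.68 ± 0.05 in G2M. PTMS, which encodes parathymosin, the acidic relative of prothymosin alpha, was at -0.26 ± 0.04 in both, with 753 and 750.4 CPM in SplitA and SplitB, and turned to 0.05 in G2M on the scale of UMIs per cell.

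Linker histones, with which HMGN proteins compete and which prothymosin alpha binds, went both ways. Summed over the flasks, H1-3 had 2 UMIs in G1, 44 in S and 33 in G2M (ratio of S to G1 30.1, 95% interval 7.84 to 256), and H1-5 had 3, 29 and 22 (ratio 13.2, interval 4.09 to 67.8). H1-10, with 802 and 753 CPM the most abundant, rose by 0.53 ± 0.04 in G2M, whereas H1-2 was at -0.68 ± 0.16 (edgeR adjusted p = 9.45e-05). H1-1 had no UMI. Transcripts of replication-dependent histones mostly lack a poly(A) tail, so the counts of H1-1 to H1-5 need not follow the amount of their RNA.

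Histone variants and chromatin proteins gave 8 higher and 2 lower genes of 10 in G2M against G1 (median 0.80) and 7 higher and 1 lower in S against G1 (median 0.52). DESeq2 called 7 higher and 1 lower in G2M and 6 higher and 1 lower in S. The lamin gene LMNB1 rose by 2.75 ± 0.25, H2AX by 2.74 ± 0.12, LMNB2 by 1.69 ± 0.17 and H2AZ1 by 1.45 ± 0.04 in G2M. The 2 lower genes, H3-3A (-0.09 ± 0.03) and H3-3B (-0.21 ± 0.03), turned to 0.21 and 0.09 on the scale of UMIs per cell, and H3-3A also to 0.03 with total UMIs. H2AZ1, the gene nearest to HMGB1 over cells, had 1169 and 1158 CPM.

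Outside the nucleus HMGB1 acts as a danger signal, and its receptors and partners there ranged from no UMI to the 170 and 165 CPM of CD24. AGER, which encodes the receptor RAGE, had 7 and 10 UMIs in SplitA and SplitB, and of the 10 genes TLR2, TLR4, TLR9, HAVCR2 and THBD had no UMI. CD24 and CXCR4 could be tested, and edgeR and DESeq2 called neither in any contrast, with 0, 1 and 0 at an unadjusted p under 0.05. Of the SET complex, which holds HMGB2, only 3 genes were listed apart, and SET itself was counted among the histone chaperones and acidic nuclear proteins. SET was higher in G2M than in G1 (0.48 ± 0.05, edgeR adjusted p = 5.89e-17). Of the 3 genes, NME1 was higher in S than in G1 (0.26 ± 0.06, edgeR adjusted p = 5.59e-04) and lower in G2M than in S (-0.34 ± 0.07, edgeR adjusted p = 2.17e-05). DESeq2 called 1 gene of this list lower in G2M than in S and none in the other contrasts. APEX1 was lower in G2M than in G1 by edgeR (-0.26 ± 0.10, adjusted p = 0.0263) and reached 0.04 on the scale of UMIs per cell, and TREX1 had no UMI. Of 6 genes linked to PTMA in apoptosis and oxidative stress, 2 were higher and 1 lower in G2M, where 30.1% of all genes were called in either direction. CYCS, which encodes cytochrome c, rose by 0.68 ± 0.06, APAF1 was at 1.09 ± 0.41 (edgeR adjusted p = 0.0305) and CASP9 at -1.31 ± 0.41 (edgeR adjusted p = 0.00640), and DESeq2 called only 1 of the 6.

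Counts of several members are uncertain in 1 respect. GENCODE 44 annotates 47 pseudogenes named after HMGB1, 38 after HMGN2, 32 after HMGN1, 29 after HMGB3, 12 after PTMA and 7 after HMGA1, none of which has a row in the table, so reads shared with such near-identical copies cannot be followed. HMGN3 overlaps its antisense gene HMGN3-AS1, which had 9 and 13 UMIs, and the use of strand in counting is not given in the sources used here.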

How the data were processed

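The authors deposited a gene by cell table of UMI counts from 10x 3' CITE-seq, with the hashtag counts of each cell. The submitters' processing notes name Cell Ranger 4.0.0 and STAR 2.7, and reads were mapped to GRCh38. The annotation version is not given in the sources used here, and gene positions were taken from GENCODE 44. A cell was a singlet when one hashtag count was at least 3 times the other and the other was at most 185. Doublets within a flask could not be found this way. The groups were the 2 flasks, and singlets with at least 1000 genes were kept (5852780 and 8066440 UMIs).

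Phases were called with Seurat 5.3.0 from 43 S and 53 G2M genes. UMIs were summed into 6 flask by phase samples and tested with edgeR 4.0.16 (TMM, filterByExpr, flask block) in R 4.3.3, with Benjamini-Hochberg adjustment over all genes. Cycle score genes were left out of the counts of called genes. The flask number marks cells of the same flask, which is where the pairing comes from. On simulated data for G2M against G1 (10349 genes), 39 of 50 genes changed by 2-fold and 6 of 10151 unchanged genes were called. Of genes changed by 1.5-fold 22 of 50 were called, by 1.25-fold 7 of 50 and by 0.5-fold 28 of 48. The counts were drawn at a fixed dispersion, so these rates need not hold for the spread of the real cells. Flasks, levels, bins, spread and co-expression were described without a test.

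The members and lists were chosen with earlier results of these data known. For each member the 3 genes with the highest lower r of both flasks were named, and for each list the genes with the largest called changes. One gene of the linker histone list is not reported here, and the counts of that list are left out with it. In all 32 alternatives were planned, among them DESeq2 1.42.0, other scalings, no filter, thinning to 2000 UMIs, other cell limits and leaving out each flask. Python 3.11.15 with scipy 1.17.1 gave exact Poisson and Clopper-Pearson 95% intervals.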

Additional observations from a re-analysis of the deposited data

Results flagged for a closer look

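The singlets with under 1000 genes, which enter the comparisons between phases only with a minimum of 300 genes, still held RNA of HMGB1 and HMGA1 above the limit that a count of 0 allows. HMGN5 had 0 UMIs there in SplitA and 1 in SplitB. HMGB1 had 967 CPM there in SplitA and 928 CPM in SplitB, and HMGA1 had 84.4 and 83.9 CPM. The 95 multiplets, which were assigned to no flask, had 568 CPM of HMGB2, against 841 and 802 CPM in the kept singlets of SplitA and SplitB. Both hashtag counts were over the limit of 185 in 58 of them, so not all multiplets need be doublets. Unlike the kept singlets, the multiplets were not limited to cells with at least 1000 genes.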

How the results depend on the processing

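HMGB1, HMGB2, HMGB3, HMGN1, HMGN2 and PTMA were called higher in S and in G2M than in G1 under each of 15 tested alternatives, and HMGA1 under 14 and 12. Of the log2 differences of members, 386 kept their side of the threshold, or moved little where no test was possible. Another 13 lost the call, 5 gained it and 3 moved by more than 1 SD between flasks. The remaining 1 turned into a call of the other sign, that of PTMA in G2M against S (0.23 with UMIs per cell). No test was possible with a flask left out. There the SD comes from the same single-flask values that are compared with the joint one. A move within it was thus nearly fixed in advance, and these differences among the 386 do not bear on stability. Among the 386, 8 changed sign, none of them called: those of HMGA1 (4) and PTMA (3) in G2M against S and of HMGN3 (1) in S against G1. The number of genes called in S against G1, G2M against G1 and G2M against S was 2096, 3160 and 794. It was 586, 968 and 140 with DESeq2, 912, 1254 and 190 with cells thinned to 2000 UMIs, which tests fewer genes, 689, 997 and 132 with phases called anew after thinning, and 1711 in G2M against S with UMIs per cell. With a minimum of 300 genes 1 member, HMGN3, was called lower in S than in G1, beside 1224 of 10163 genes. Without the replicate block 7, 7 and 5 members and 2065, 3121 and 722 genes were called, and HMGN3 in G2M against S lost its call (edgeR adjusted p = 0.0629). The summed level of the members, 6961 CPM as the mean of both flasks, was 7051 with a mitochondrial share under 15% and 6753 with a minimum of 300 genes. The median r of the pairs, 0.178, was 0.160 as Spearman's rho, 0.0738 with thinned cells, 0.148 after regression on the scores and 0.124 with a mitochondrial share under 15%. The median excess CV of all members, 41.9% with HMGN5 counted as 0, was 45.1% with thinned cells and 35.7% within a phase. The cause of these shifts was not tested. HMGN5 could not be tested at this depth.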
